A study of Mus musculus with 6 samples.

Results

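The 36 genes described here encode proteins by which endothelial cells, the lining of blood and lymph vessels, are recognised. They were chosen by name, with earlier results of these data known, and each is a row of the deposited table of 24315 genes. The tissue was the whole heart of male C57Bl6J mice at 6 weeks of age, with 1 RNA library per heart. The cKO hearts (n = 3) were cyclin C fl/fl; aMHC cre, in which the promoter of the alpha myosin heavy chain gene drives Cre recombinase in cardiomyocytes. The fl/fl hearts (n = 3) carried the same floxed alleles and no Cre in their label, so Cre and the deletion differ together between the groups. Endothelial cells were therefore not the cells in which the recombinase was driven. The comparison asks how the RNA of the heart differs once cyclin C, a partner of the Mediator kinases in transcription, is deleted in cardiomyocytes, and here it is read for the vessel lining.

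Heart muscle is fed by a dense capillary bed, and endothelial cells are numerous in it. Their identity is held by transcription factors of the ETS family (Erg, Fli1, Ets1) and of the SOXF group (Sox7, Sox17, Sox18). Their growth is governed by VEGF acting on Kdr, by angiopoietins acting on Tek, and by apelin (Apln) acting on its receptor Aplnr. Capillary endothelium of the heart also moves fatty acids to the muscle, which is where Gpihbp1 and Fabp4 work, while Flt4, Prox1 and Lyve1 are used as markers of lymphatic vessels. In a whole heart, more endothelial cells and more RNA of these genes per cell cannot be told apart.

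Expression was deposited as FPKM (fragments per length of transcript and per mapped fragments of the library), which allows levels to be set side by side between genes. The 36 genes all passed the filter of a mean of at least 1 FPKM over the 6 libraries, and so were tested among 12103 genes. The floxed gene itself, Ccnc, was at 5.81, 5.70 and 4.53 FPKM in the cKO hearts, against 8.48, 7.60 and 10.8 FPKM in the fl/fl hearts. All 3 cKO hearts lay below all 3 fl/fl hearts (log2 change -0.65, SE 0.15), yet the difference missed the threshold over all genes (limma adjusted p = 0.144). Whole hearts hold many cells without the Cre driver, and the labels do not say which stretch of Ccnc is deleted. Library 3 of both genotypes stood apart in clock genes, which were chosen after their values were seen: the clock activator Arntl was at 0.582, 0.802 and 13.7 FPKM in cKO and at 1.37, 0.526 and 8.84 FPKM in fl/fl. Library fl/fl 1 held thymocyte and fat transcripts, and fl/fl 1 and fl/fl 2 held lung transcripts, with values given beside the other cell types. FPKM sums were 589196 to 616158 in cKO libraries and 627881 to 768960 in fl/fl libraries. The files used here give no read counts, so the depth in reads is unknown. Steps between low values put the relative depth at 0.886 to 1.09 times that of fl/fl 1.

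Of the 36 genes, 17 had a promoter in the RefSeq table (build GRCm38.p6). The stretch read was the 250 bases before the transcription start, on the gene's strand. The 6 with the highest log2 change are printed because ETS factors, which are themselves among the 36 genes, bind sites with a GGAA core in endothelial promoters. Capitals mark CAGGAA or CCGGAA on either strand, which on the printed strand may read as TTCCTG or TTCCGG.
Apln, minus strand of chrX:48034854-48035103: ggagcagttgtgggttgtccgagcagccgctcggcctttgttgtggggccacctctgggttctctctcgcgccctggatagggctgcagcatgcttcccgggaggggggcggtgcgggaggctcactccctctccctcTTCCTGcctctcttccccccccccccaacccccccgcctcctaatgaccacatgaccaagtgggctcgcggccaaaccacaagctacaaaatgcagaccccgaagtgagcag
Kdr, minus strand of chr5:75978456-75978705: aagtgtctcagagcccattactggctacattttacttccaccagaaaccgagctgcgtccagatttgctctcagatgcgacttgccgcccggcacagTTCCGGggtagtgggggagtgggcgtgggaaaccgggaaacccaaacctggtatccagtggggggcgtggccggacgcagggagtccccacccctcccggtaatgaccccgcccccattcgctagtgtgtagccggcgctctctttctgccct
Flt1, minus strand of chr5:147726012-147726261: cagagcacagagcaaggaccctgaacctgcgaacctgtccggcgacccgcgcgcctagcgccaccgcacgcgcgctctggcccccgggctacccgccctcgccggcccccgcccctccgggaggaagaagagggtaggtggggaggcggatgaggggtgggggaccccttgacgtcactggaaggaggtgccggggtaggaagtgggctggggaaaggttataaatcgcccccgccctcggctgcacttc
Flt4, plus strand of chr11:49609429-49609678: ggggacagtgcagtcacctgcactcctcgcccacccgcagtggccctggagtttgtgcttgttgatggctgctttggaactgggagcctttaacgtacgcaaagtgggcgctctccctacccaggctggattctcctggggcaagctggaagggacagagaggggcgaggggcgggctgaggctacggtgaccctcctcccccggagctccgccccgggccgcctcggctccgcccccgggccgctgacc
Tie1, minus strand of chr4:118489850-118490099: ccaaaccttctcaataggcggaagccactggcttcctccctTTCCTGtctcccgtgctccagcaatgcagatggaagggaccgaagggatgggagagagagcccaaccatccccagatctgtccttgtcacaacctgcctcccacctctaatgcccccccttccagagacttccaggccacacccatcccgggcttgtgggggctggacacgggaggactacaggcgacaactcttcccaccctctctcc
Emcn, plus strand of chr3:137340828-137341077: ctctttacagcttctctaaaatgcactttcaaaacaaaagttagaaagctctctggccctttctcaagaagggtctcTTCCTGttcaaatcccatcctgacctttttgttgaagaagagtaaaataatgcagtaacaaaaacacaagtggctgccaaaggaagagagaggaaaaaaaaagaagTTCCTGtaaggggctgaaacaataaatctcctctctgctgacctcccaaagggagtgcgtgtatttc

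Apln carried 1 such match, at position -112 from the start, Kdr 1 at -153, Tie1 1 at -209 and Emcn 2 at -173 and -67. No match stood in the printed stretches of Flt1 and Flt4, which says only that these letters are not in that window. Both stretches hold the shorter GGAA core, which was not marked on its own. CAGGAA occurred in 10 of the 17 promoters (58.8%), against 25.4% of 27025 genes with a promoter of the same length. CCGGAA occurred in 2 of the 17 (11.8%), against 12.2% of all. Both strands were searched for each motif. AACAGGAA, a reduced form of the combined FOX and ETS motif that contains CAGGAA, was found in the promoters of Emcn, Egfl7 and Ushbp1, 3 of 17 (17.6%), against 2.16% of all. AACAAT, a SOX motif, was found in 3 of 17 (17.6%), namely Emcn, Ushbp1 and Tek, against 9.65% of all. A match is a stretch of letters and was not shown to be bound in these hearts.

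As a group the 36 genes lay slightly higher in cKO hearts, without any of them passing the test over all genes. On log2(FPKM + 1), 33 of the 36 genes (91.7%) had a positive change and 3 a negative one, against 49.6% positive among all 12103 genes tested. Their median log2 change was 0.28, against -0.002 for all genes tested, and the ratio of mean FPKM ran between 0.911 (Lyve1) and 1.88 (Apln) with a median of 1.24. In 15 genes every cKO heart lay above every fl/fl heart, and in 0 every cKO heart lay below. Among all genes tested the shares were 10.1% and 10.3%. By limma, 0 of the 36 genes had an adjusted p under 0.05 (the range was 0.179 to 0.997), in a comparison that called 0.587% of all genes, and 14 had an unadjusted limma p under 0.05 with the higher value in cKO, against 6.34% of all genes. The groups of 3 allow an exact two-sided permutation p no smaller than 0.1, and all 15 genes without overlap had that value.

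The shift was carried by all 3 cKO hearts but most by cKO 3. Against the fl/fl mean, the median of the 36 genes was 0.22, 0.17 and 0.42 in cKO 1, cKO 2 and cKO 3, and 0.03, -0.06 and -0.03 in fl/fl 1, fl/fl 2 and fl/fl 3. Without cKO 3 the median change of the 36 genes was 0.18, and with libraries 1 and 2 of each genotype alone it was 0.22. The highest library was cKO 3 for 23 genes, cKO 2 for 5, cKO 1 for 4 and fl/fl 2 for 4. The lowest was a fl/fl library for 34 of the 36.

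**Figure D1:**
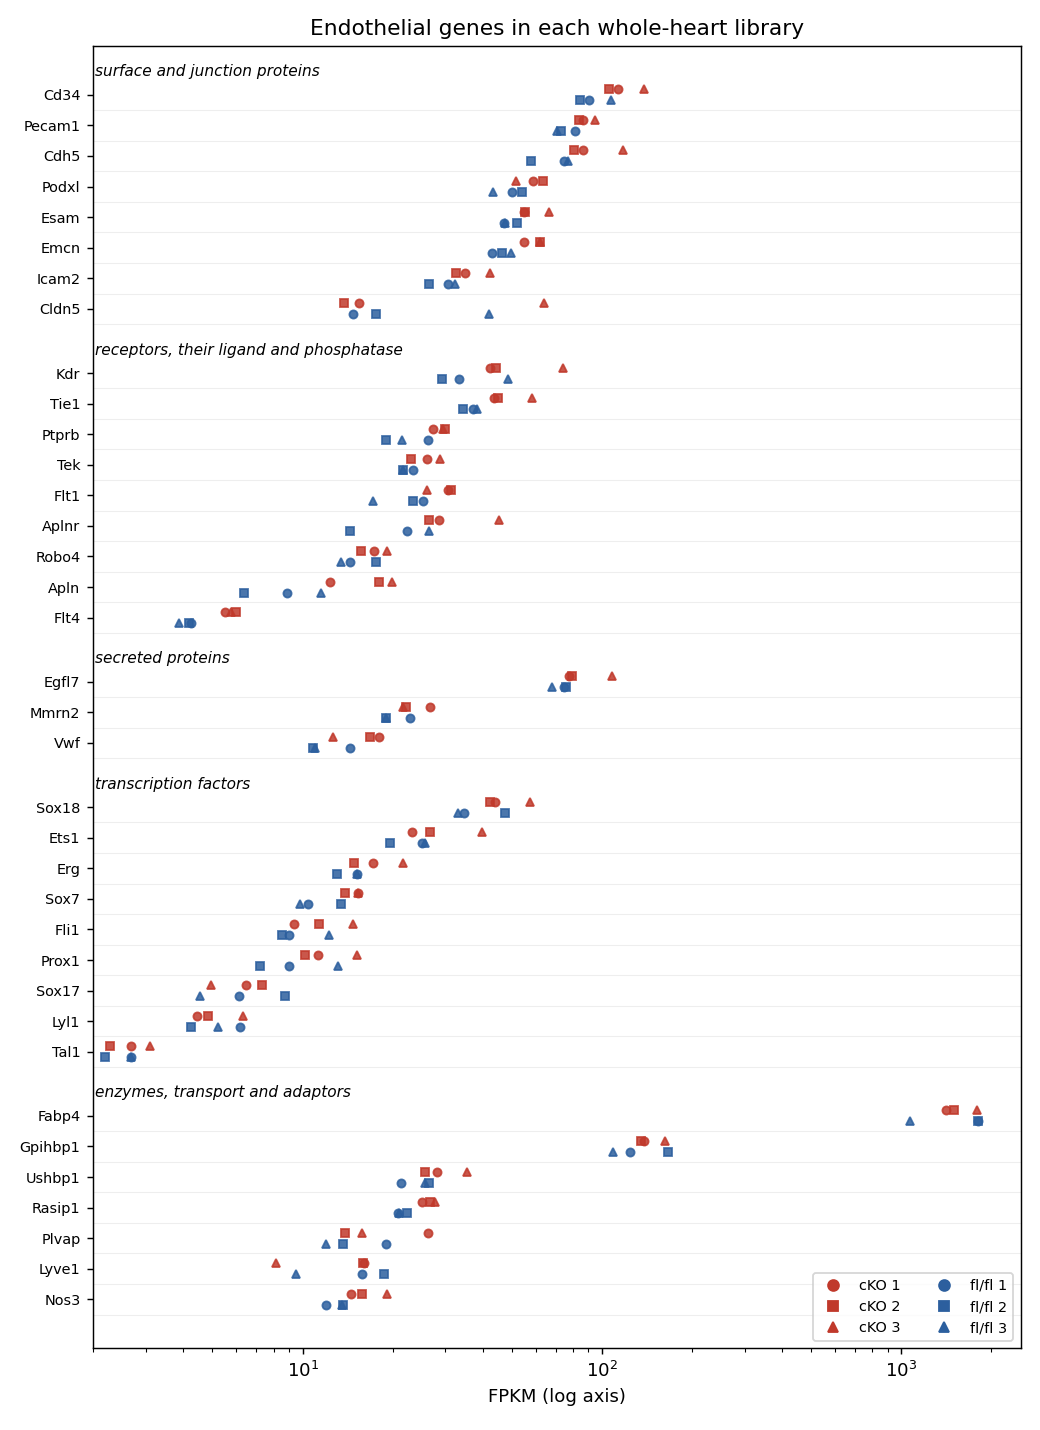
Level of each of the 36 endothelial genes in FPKM (horizontal log axis), grouped by role and ordered by level within a role; red symbols are the cKO hearts and blue symbols the fl/fl hearts, with 1 symbol per library. Most red symbols lie to the right of the blue ones of the same gene, levels run between a mean of 2.6 FPKM for Tal1 and 1560 FPKM for Fabp4, and library 3 of both genotypes stands far out for Cldn5.

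Receptors with their ligand and phosphatase had the highest median of the 5 roles, 0.41, with all 9 genes positive and 6 without overlap. Over all genes tested, 49.6% were positive and 10.1% had every cKO heart above every fl/fl heart. Apln encodes apelin, a peptide that tip cells of growing vessels release. It was at 12.31, 17.98 and 19.91 FPKM in the cKO hearts, against 8.85, 6.37 and 11.5 FPKM in the fl/fl hearts. The groups did not overlap, and the log2 change of 0.85 (SE 0.23; limma adjusted p = 0.207) was the largest among the 36 genes. Its receptor, Aplnr, a G-protein-coupled receptor, was at 28.5, 26.4 and 45.4 FPKM in cKO, against 22.3, 14.4 and 26.4 FPKM in fl/fl. Here cKO 2 lay just above fl/fl 3, and the log2 change was 0.64 (SE 0.25; limma adjusted p = 0.362). Kdr, the main signalling receptor for VEGF-A, was at 42.3, 44.3 and 74.0 FPKM in cKO, against 33.4, 29.3 and 48.5 FPKM in fl/fl. Its groups overlapped, since fl/fl 3 lay above cKO 1 and cKO 2 (log2 change 0.51, SE 0.25, limma adjusted p = 0.431).

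Flt1 binds VEGF-A tightly and limits what reaches Kdr. It was at 30.5, 31.4 and 26.1 FPKM in cKO, against 25.3, 23.4 and 17.2 FPKM in fl/fl, a log2 change of 0.41 (SE 0.15). Library 3 was here the lowest of each group, the opposite of Kdr. Flt4, the VEGF-C receptor of lymphatic vessels, was at 5.49, 5.99 and 5.77 FPKM in cKO, against 4.24, 4.18 and 3.85 FPKM in fl/fl. Its replicates lay close together, and its limma adjusted p of 0.179 (log2 change 0.41, SE 0.10) was the lowest of the 36 genes. Tie1, an orphan receptor that works beside the angiopoietin receptor, was at 43.8, 44.9 and 58.3 FPKM in cKO, against 37.2, 34.2 and 38.4 FPKM in fl/fl, with no overlap (log2 change 0.40, SE 0.13).

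Tek (Tie2), the angiopoietin receptor itself, was at 26.0, 23.1 and 28.7 FPKM in cKO, against 23.3, 21.7 and 21.6 FPKM in fl/fl. The groups met, as cKO 2 lay below fl/fl 1, and the log2 change was 0.21 (SE 0.10). Ptprb, the phosphatase that takes phosphate off Tek, was at 27.3, 29.9 and 29.4 FPKM in cKO, against 26.2, 18.9 and 21.5 FPKM in fl/fl (log2 change 0.37, SE 0.12). All cKO hearts lay above all fl/fl hearts for Ptprb, although cKO 1 exceeded fl/fl 1 only narrowly. Robo4, a vessel-stabilising receptor of the Roundabout family, had the smallest change of the role (0.19, SE 0.12), with fl/fl 2 above cKO 1 and cKO 2.

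**Figure D2:**
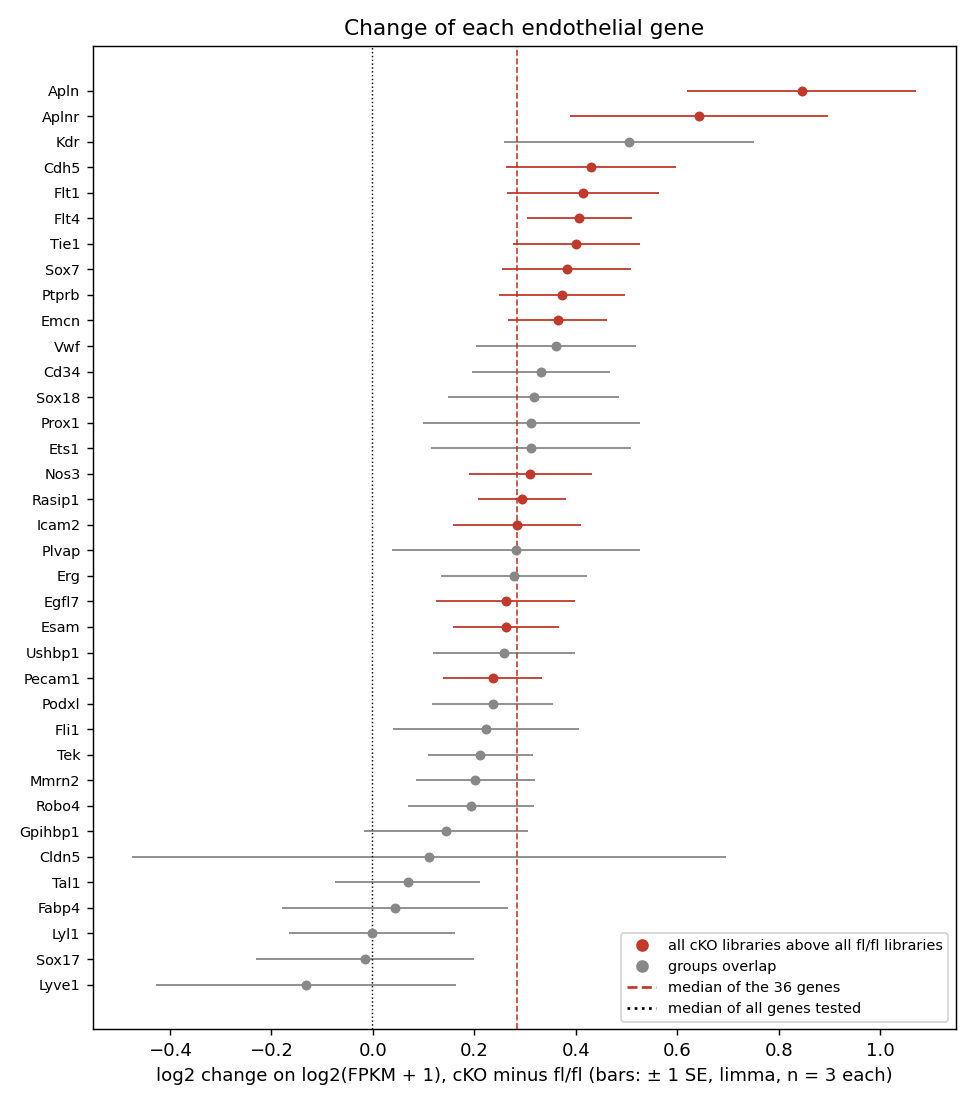
Log2 change on log2(FPKM + 1), cKO minus fl/fl, of each of the 36 endothelial genes (points) with 1 SE by limma (bars; n = 3 hearts each), red where all cKO hearts lay above all fl/fl hearts and grey where the groups overlap. The points run between 0.85 for Apln and -0.13 for Lyve1 around a median of 0.28 (dashed line), and Cldn5 has the widest error, an SE of 0.59.

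All 8 surface and junction genes were positive (median 0.27), against 49.6% of all genes tested. In 5 of them every cKO heart lay above every fl/fl heart, as in 10.1% of all genes tested. Cdh5, or VE-cadherin, the adhesion molecule of the endothelial junction, was at 86.6, 80.7 and 117.4 FPKM in cKO, against 74.4, 57.9 and 77.1 FPKM in fl/fl. All cKO hearts were above all fl/fl hearts (log2 change 0.43, SE 0.17, limma adjusted p = 0.358). Pecam1 (CD31), a junctional adhesion molecule that platelets also carry, was at 86.6, 84.03 and 95.04 FPKM in cKO, against 81.3, 73.0 and 70.8 FPKM in fl/fl. Its groups were separate by a smaller step (log2 change 0.24, SE 0.10). Emcn, the sialomucin endomucin, had values of 55.1, 62.3 and 62.0 FPKM in cKO, against 42.9, 46.3 and 49.6 FPKM in fl/fl. This is a clear gap between the groups relative to their spread (log2 change 0.36, SE 0.10), with a limma adjusted p of 0.208.

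Esam and Icam2, 2 adhesion molecules of the junction, were also separate between the groups, with log2 changes of 0.26 and 0.28. Cd34, a sialomucin shared with fibroblasts and progenitor cells, was at 112.9, 105.2 and 138.7 FPKM in cKO, against 90.7, 84.5 and 107.3 FPKM in fl/fl, and fl/fl 3 lay above cKO 2. Podxl, a related sialomucin also made by mesothelium, overlapped as well (log2 change 0.24, SE 0.12). Cldn5, the claudin that seals endothelial tight junctions, was at 15.5, 13.7 and 63.9 FPKM in cKO, against 14.7, 17.6 and 41.8 FPKM in fl/fl. Both libraries 3 stood far above the other 4 libraries, so its log2 change of 0.11 had an SE of 0.59. Without cKO 3 its change was -0.58.

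The 3 secreted proteins were positive. Egfl7, a matrix protein that endothelial cells deposit, was at 77.5, 79.7 and 107.9 FPKM in cKO, against 74.5, 75.6 and 68.2 FPKM in fl/fl, with the groups separate but cKO 1 and cKO 2 close to fl/fl 2 (log2 change 0.26, SE 0.14). Vwf, the clotting factor carrier that larger vessels and platelets hold, was at 17.99, 16.8 and 12.7 FPKM in cKO, against 14.4, 10.8 and 11.02 FPKM in fl/fl, with cKO 3 below fl/fl 1. Mmrn2, an extracellular matrix protein of endothelium, had a log2 change of 0.20 (SE 0.12) and overlapping groups.

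Among the 9 transcription factors 7 were positive (median 0.28). Of them Sox7 alone showed no overlap, with every cKO heart above every fl/fl heart, as in 10.1% of all genes tested. Sox7, a SOXF factor, was at 15.3, 13.8 and 15.3 FPKM in cKO, against 10.4, 13.5 and 9.78 FPKM in fl/fl (log2 change 0.38, SE 0.13, limma adjusted p = 0.283). Sox18, its relative, was at 44.0, 42.1 and 57.7 FPKM in cKO, against 34.6, 47.5 and 33.1 FPKM in fl/fl, where fl/fl 2 lay above 2 of the cKO hearts. Sox17, the arterial member of the group, was at 6.48, 7.33 and 4.94 FPKM in cKO, against 6.12, 8.71 and 4.54 FPKM in fl/fl. The values of Sox17 interleaved, with a log2 change of -0.02 (SE 0.21), which was 0.12 without cKO 3. Of the SOXF genes, Sox7 and Sox18 thus had positive changes, while the change of Sox17 was smaller than its SE. Differences between these genes were not tested.

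The ETS factors lay higher in the mean and overlapped. Erg, which holds endothelial identity in the adult, was at 17.2, 14.8 and 21.6 FPKM in cKO, against 15.2, 13.0 and 15.2 FPKM in fl/fl, a log2 change of 0.28 (SE 0.14). Ets1 and Fli1, which blood cells also express, had log2 changes of 0.31 (SE 0.20) and 0.22 (SE 0.18). Tal1 and Lyl1, basic helix-loop-helix factors of endothelium and blood progenitors, were low at means of 2.69 and 5.20 FPKM in cKO, against 2.51 and 5.21 FPKM in fl/fl. The files place Lyl1 on 1 stretch with Nfix, which had a mean of 38.9 FPKM over the 6 libraries, so the reads of Lyl1 are uncertain; the other genes that overlap one of the 36 were under 1 FPKM. Prox1, the master regulator of lymphatic fate and a gene of cardiomyocytes too, was at 11.3, 10.2 and 15.2 FPKM in cKO, against 9.002, 7.22 and 13.1 FPKM in fl/fl, with fl/fl 3 above 2 cKO hearts.

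Of the 7 genes for enzymes, transport and adaptors, 6 were positive (median 0.26). Nos3, the endothelial nitric oxide synthase that sets vessel tone, was at 14.5, 15.9 and 19.2 FPKM in cKO, against 12.0, 13.6 and 13.6 FPKM in fl/fl, with no overlap (log2 change 0.31, SE 0.12). Rasip1, an adaptor needed for vessel lumens to form, was at 25.1, 26.7 and 27.6 FPKM in cKO, against 20.8, 22.4 and 21.1 FPKM in fl/fl. The spread within each group was narrow here (log2 change 0.29, SE 0.09, limma adjusted p = 0.241). Ushbp1 overlapped, with a log2 change of 0.26 (SE 0.14). Plvap, which forms the diaphragms of fenestrated and endocardial endothelium, was at 26.2, 13.9 and 15.9 FPKM in cKO, against 19.0, 13.6 and 11.9 FPKM in fl/fl, with library 1 the highest of each group.

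The fatty acid transport genes showed little difference. Fabp4, the fatty acid binding protein of capillaries and fat, was by far the most abundant of the 36 genes, at 1411, 1501 and 1794 FPKM in cKO, against 1800, 1807 and 1065 FPKM in fl/fl. Its groups overlapped widely (log2 change 0.04, SE 0.22, limma adjusted p = 0.948). Gpihbp1, which anchors lipoprotein lipase in the capillary lumen, was at 138.3, 135.1 and 162.6 FPKM in cKO, against 124.5, 166.0 and 108.6 FPKM in fl/fl. The highest and the lowest value were both fl/fl hearts (log2 change 0.14, SE 0.16). Leaving out Fabp4, the other 35 genes summed to 1244, 1222 and 1534 FPKM in cKO, against 1070, 1073 and 1082 FPKM in fl/fl, which was 0.206, 0.198 and 0.260% of each cKO library's FPKM and 0.170, 0.139 and 0.164% of each fl/fl library's.

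Sorted by vessel bed, the 5 capillary genes (Apln, Aplnr, Kdr, Gpihbp1, Fabp4) had a median log2 change of 0.51, the value of Kdr. The 12 other capillary genes outside the 36 had a median of 0.26. The 3 genes sorted as large vessel (Vwf, Plvap, Sox17) had a median of 0.28, the value of Plvap. Vwf and Plvap are also read among the endocardial genes. The 3 lymphatic genes (Flt4, Prox1, Lyve1) had a median of 0.31 and the 25 genes shared by vessel types of 0.28. The capillary median rested partly on cKO 3, without which it was 0.25, and its 5 genes spanned changes of 0.04 to 0.85. The large vessel median was 0.02 without cKO 1, and the lymphatic median was 0.16 without cKO 3. Among the lymphatic genes Flt4 was separate between the groups, and Prox1 and Lyve1 overlapped. Lyve1, a hyaluronan receptor that heart macrophages also carry, was at 16.1, 15.9 and 8.18 FPKM in cKO, against 15.8, 18.8 and 9.53 FPKM in fl/fl. Lyve1 thus had the lowest change of all 36 (-0.13, SE 0.30), though smaller than its SE, and 0.16 without cKO 3. The differences between beds are descriptions and were not tested.

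In the authors' deposited table, which was made with Cuffdiff, 4 of the 36 genes had a q under 0.05, all higher in cKO, and 0 lower, where 1.68% of the 12587 genes tested there were called higher. By the authors' deposited table, Apln and Aplnr each had q = 0.00301, Kdr q = 0.00752 and Cdh5 q = 0.0491. Tie1 (q = 0.0766), Flt1 (q = 0.0785) and Flt4 (q = 0.0902) came next in the authors' deposited table. On log2(FPKM + 1) the 4 called genes are also the 4 with the largest change, in values from the same libraries. By the ratio of mean FPKM, Flt4 (1.41), which was not called, lay above Cdh5 (1.36). In 3 of the 4 called genes every cKO heart lay above every fl/fl heart, as in 10.1% of all genes tested. Limma on the FPKM of single libraries called none of these 4, with adjusted p values of 0.207 to 0.431. The 3 of highest rank, Apln, Aplnr and Kdr, were sorted here as capillary genes. Gpihbp1 (q = 0.83) and Fabp4 (q = 0.988), sorted likewise, were not called in the authors' deposited table.

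Libraries 3 of the 2 genotypes, the pair that stood apart in clock genes, also shared features within the 36 genes. In Kdr, Cldn5, Fli1 and Prox1 both libraries 3 lay above all other 4 libraries, and in Sox17 and Lyve1 both lay below them. In 12 of the 36 genes library 3 was the highest of its group in both genotypes, and in 4 (Flt1, Sox17, Podxl, Lyve1) the lowest in both. For Kdr the ratio of library 3 to the mean of the other 2 was 1.71 in cKO and 1.55 in fl/fl, for Cldn5 4.37 and 2.59, and for Lyve1 0.512 and 0.552. With libraries 1 and 2 of each genotype alone, 30 of the 36 genes were positive, and Cldn5 (-0.13), Gpihbp1 (-0.07) and Fabp4 (-0.31) were negative in addition to Lyl1, Sox17 and Lyve1. The part of collection time, which no label gives, was not tested.

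**Figure D3:**
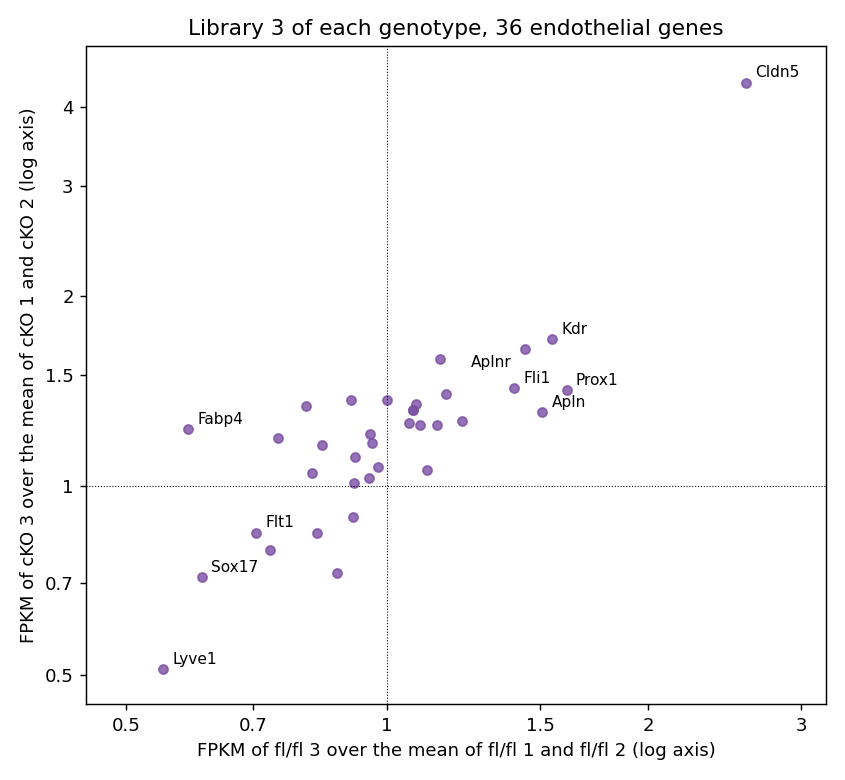
FPKM of library 3 over the mean of libraries 1 and 2 of the same genotype for each of the 36 endothelial genes (points, both axes log), with cKO on the vertical axis and fl/fl on the horizontal axis; dotted lines mark a ratio of 1. Cldn5 is far out in both genotypes at 4.37 in cKO and 2.59 in fl/fl, and Lyve1 is low in both at 0.512 and 0.552, whereas Fabp4 is at 1.23 in cKO and 0.59 in fl/fl.

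Genes of the same pathways outside the 36 were read from lists. Of 9 tested ligands and co-receptors of the VEGF and angiopoietin systems, 0 were called in either direction by limma, 6 were positive, and the median log2 change was 0.04. Vegfa, the main ligand of Kdr, was at 116.6, 121.5 and 142.2 FPKM in cKO, against 98.1, 111.9 and 145.3 FPKM in fl/fl, which overlapped (log2 change 0.11, SE 0.15). Vegfb, a ligand of Flt1, had a log2 change of -0.12, Vegfc 0.04, Figf (VEGF-D) -0.27, and Pgf 0.04. Angpt1, the activating ligand of Tek, was at 23.6, 13.7 and 15.5 FPKM in cKO, against 25.8, 20.9 and 33.2 FPKM in fl/fl, with cKO 1 inside the fl/fl range (log2 change -0.58, SE 0.22, limma adjusted p = 0.339). Angpt2, the context-dependent ligand of Tek, had a log2 change of 0.21, and the VEGF co-receptors Nrp1 and Nrp2 had 0.30 and 0.50, all with overlapping groups.

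Other endothelial genes lay in the same direction as the 36. All 31 other pan-endothelial genes tested were positive, with a median of 0.28, 13 without overlap and 0 called by limma. In each of the 13 every cKO heart lay above every fl/fl heart, as in 10.1% of all genes tested. The share of positive changes among all genes tested was 49.6%. Palmd, a cytosolic palmdelphin, was at 44.8, 42.4 and 42.0 FPKM in cKO, against 30.7, 28.2 and 34.8 FPKM in fl/fl (log2 change 0.46, SE 0.10, limma adjusted p = 0.133). Myct1, Ecscr and Cav2 followed with log2 changes of 0.40, 0.33 and 0.35, each without overlap. Of 12 other capillary genes 10 were positive (median 0.26), with Slc28a2, a nucleoside transporter, at 0.42, Aqp1, a water channel, at 0.29, Btnl9 at 0.33 and Cd300lg at 0.29. The negative ones, named after their values were seen, were Lpl (-0.24, SE 0.16) and Cd36 (-0.07, SE 0.11), both with overlapping groups. Lpl and Cd36 were sorted here as capillary, and which cells of the heart made their RNA was not tested.

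Of 13 tested artery and vein genes 11 were positive (median 0.13). Gja5, connexin 40 of arterial endothelium and also of the atria and the conduction system, was an exception at 4.24, 3.03 and 3.63 FPKM in cKO, against 5.51, 5.10 and 7.44 FPKM in fl/fl. All cKO hearts lay below all fl/fl hearts for Gja5 (log2 change -0.59, SE 0.16, limma adjusted p = 0.213). Ephb4, the venous ephrin receptor, Aqp7 and Efnb2, the arterial ephrin, had log2 changes of 0.23, 0.37 and 0.24. Of 7 tested endocardial genes, which include Vwf and Plvap, 6 were positive (median 0.17), with Nfatc1 at 0.24 and Tmem108 at 0.17. Of 6 other lymphatic genes 5 were positive (median 0.14). Itga9 was at 0.46 and separate between the groups, Nrp2, also read among the VEGF co-receptors, at 0.50, Foxc2 at 0.25 and Sema3d at -0.07. Mmrn1 and Pdpn, named after their values were seen, were at 0.02 (SE 0.16) and 0.02 (SE 0.20), with overlapping groups. Limma called 0 genes of these lists.

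**Figure D4:**
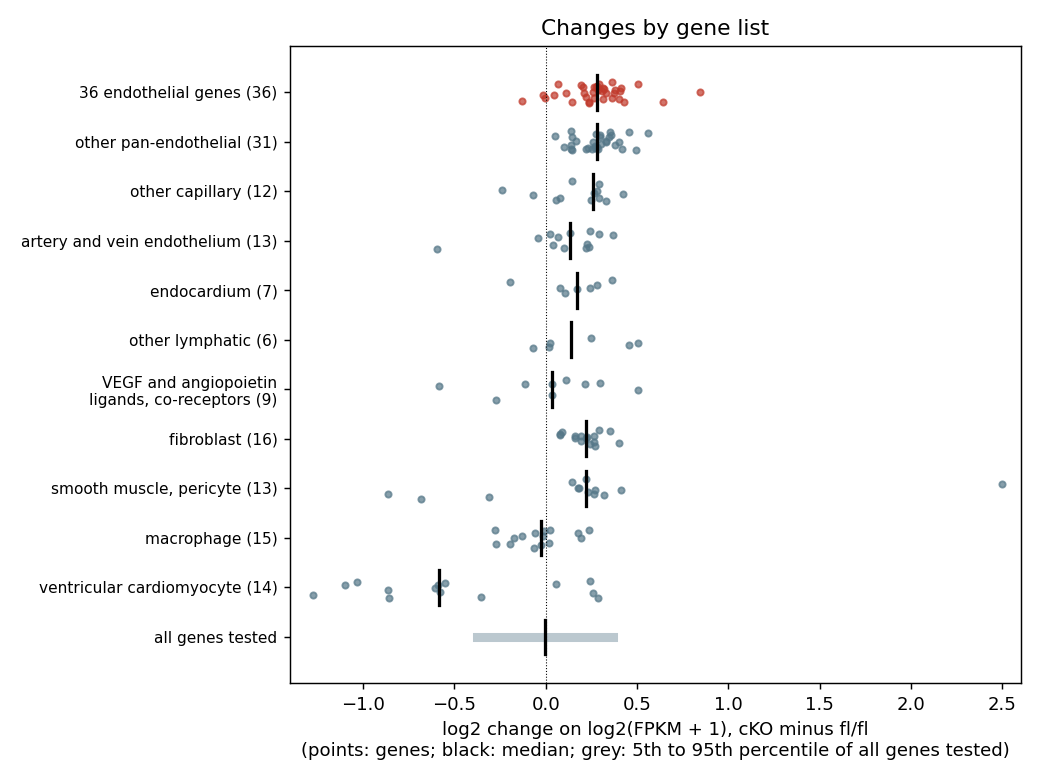
Log2 change on log2(FPKM + 1), cKO minus fl/fl, of each tested gene (points) in the 36 endothelial genes, in related endothelial lists and in markers of other heart cells, with the number tested in brackets and the list median as a black bar; the grey bar spans the 5th to the 95th percentile of all genes tested. The medians of the endothelial lists lie between 0.13 and 0.28, the fibroblast median at 0.22, the macrophage median at -0.03 and the ventricular cardiomyocyte median at -0.58.

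Other cell types of the heart differed in level between the same libraries, and their part in the values of the 36 genes was not tested. All 16 fibroblast genes were positive with a median of 0.22 and 0 called by limma. The list summed to 2431 to 2670 FPKM in cKO, against 2158 to 2429 FPKM in fl/fl, where the matrix proteoglycan Dcn had a log2 change of 0.20 and the actin-severing Gsn 0.16. Of 13 smooth muscle and pericyte genes 10 were positive (median 0.22). Among them Acta2, smooth muscle actin, rose to 553.8, 474.4 and 617.4 FPKM in cKO, against 102.4, 85.2 and 100.6 FPKM in fl/fl (log2 change 2.50, SE 0.13, limma adjusted p = 0.000212), while the pericyte gene Rgs5 had 0.27. The other contractile smooth muscle genes, named after their values were seen, did not share that direction: Tagln (-0.69), Cnn1 (-0.86) and Myh11 (-0.31) had negative log2 changes and overlapping groups. The smooth muscle and pericyte list summed to 930.8 to 1109 FPKM in cKO, against 513.1 to 546.1 FPKM in fl/fl, and Acta2 carried most of that gap. Without Acta2 the other 12 genes summed to 456.4 to 491.7 FPKM in cKO, against 427.8 to 443.8 FPKM in fl/fl. Macrophage genes showed no such lean, with 5 of 15 positive, a median of -0.03 and sums of 442.1 to 483.8 FPKM in cKO, against 448.1 to 525.9 FPKM in fl/fl. Lyz2 and C1qa, the most abundant of them, had log2 changes of -0.06 and -0.17.

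Most of the cardiomyocyte genes listed lay lower, and cardiomyocyte genes make up a large share of each library. The 14 ventricular genes summed to 53260 to 58900 FPKM in cKO, against 76740 to 104000 FPKM in fl/fl. Of them 10 were negative and 4 positive, with a median of -0.58. The positive ones, named after their values were seen, were Actc1 (0.289, every cKO heart above every fl/fl heart), Ckm (0.259), Actn2 (0.245) and Ttn (0.055). Mb (myoglobin, log2 change -1.27) and Ryr2 (the calcium release channel, -1.03; chosen after its values were seen) fell by limma, and Myl2, a ventricular myosin light chain, had -1.10. FPKM are relative to each library, and the 10 most abundant genes held 11.4 to 12% of the FPKM in cKO libraries, against 14.4 to 16.5% in fl/fl libraries. With library scaling set by quantiles, by the upper quartile or by the median ratio, the median of the 36 genes was 0.31, 0.31 and 0.28, and 33, 35 and 33 of them were positive. Of 11 atrial genes 9 were negative (median -1.39), and the list summed to 1525 to 4633 FPKM in cKO, against 3896 to 6758 FPKM in fl/fl. Nppa and Myl7 had log2 changes of -0.39 and -2.99, and Bmp10, named after its values were seen, fell by limma (-4.83).

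Tissue around the heart differed between libraries as well. The 13 fat cell genes summed to 193.4 to 227.6 FPKM in cKO, against 644.1, 123.2 and 101.1 FPKM in fl/fl 1, fl/fl 2 and fl/fl 3. Of the 11 tested, 10 were negative (median -1.50). Thrsp, a lipogenic regulator, made up most of the cKO sums, at 144.8 to 179.8 FPKM in cKO, against 30.3 to 94.2 FPKM in fl/fl. Without Thrsp the list summed to 47.4 to 59.7 FPKM in cKO, below every fl/fl library, of which the lowest was fl/fl 3 at 70.9 FPKM. Cidea and Slc36a2, named after their values were seen, made up most of these cKO sums. Cidea was at 23.1 to 27.8 FPKM in cKO, against 32.5 to 40.2 FPKM in fl/fl. Slc36a2 was at 7.70 to 9.98 FPKM in cKO, against 15.8 to 21.7 FPKM in fl/fl. Whether this gap reflects attached fat was not tested. Cfd, the adipocyte protease adipsin, was at 4.42, 8.501 and 4.37 FPKM in cKO, against 295.5, 10.9 and 8.24 FPKM in fl/fl. Of the 36 genes, Fabp4 is also a fat cell gene. Slc36a2 was the 1 gene of the list that limma called (log2 change -0.95), and is named after its values were seen.

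The 13 lymphocyte and thymocyte genes summed to 6.58 to 8.68 FPKM in cKO, against 111.2, 5.19 and 5.20 FPKM in fl/fl, so that fl/fl 1 stood alone. Cd3g and Lck, both T cell genes, stood out in fl/fl 1 at 18.1 and 18.3 FPKM, with highest values of 0.938 and 1.20 FPKM among the other libraries. Lung epithelium genes summed to 0.470, 0.127 and 0.709 FPKM in cKO, against 5.26, 18.8 and 0.07 FPKM in fl/fl. Scgb1a1, a secretory protein of the airway, was listed at 0.01, 0.01 and 0.323 FPKM in cKO, against 3.06, 14.7 and 0.01 FPKM in fl/fl, where 0.01 is the lowest value of the table and stands for 0. Lung is rich in endothelium, so these 2 libraries were left out together as an alternative chosen after the data were seen: the median of the 36 genes was then 0.31, with 32 positive. That value sets the 3 cKO hearts against fl/fl 3 alone, a library that stands apart in clock genes, so it does not show what lung RNA contributes, which was not tested. The 6 mesothelial genes summed to 2.83 to 6.44 FPKM in cKO, against 28.5, 10.7 and 5.83 FPKM in fl/fl, with Upk3b highest in fl/fl 1 and Wt1 at a log2 change of 0.07. Of 5 tested platelet and red cell genes 4 were positive (median 0.17). The globins Hbb-b1 and Hba-a1 each had a log2 change of 0.17, and the platelet genes Itga2b, Gp9 and Gp1bb were under 1 FPKM in every library. Other genes listed with platelets, named after their values were seen, were measurable, and which cells made their RNA was not tested. Pf4 was at 34.7, 30.2 and 43.1 FPKM in cKO, against 38.3, 37.5 and 40.5 FPKM in fl/fl (log2 change -0.12), and Ppbp at 1.51, 1.35 and 2.29 FPKM in cKO, against 1.17, 0.985 and 1.29 FPKM in fl/fl (log2 change 0.33, no overlap). Pecam1, Vwf and Icam2 are shared with platelets. Among the 24 of the 36 genes for which no other cell type was named, the median was 0.30 with 23 positive and 13 without overlap. Among the 12 shared with another cell type it was 0.24 with 10 positive and 2 without overlap. In each gene without overlap every cKO heart lay above every fl/fl heart, as in 10.1% of all genes tested. The difference between the 2 sets was not tested.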

How the data were processed

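RNA was measured in whole hearts of 3 cKO and 3 fl/fl mice, grouped and numbered by the sample titles; the labels give each library its own heart. Per the labels' protocols, frozen hearts were extracted with Trizol and TruSeq libraries were prepared. Stranded libraries are stated in the design text, but the kit of the protocol keeps no strand information, and how strand was handled in counting is not stated. TopHat (version 1.0.0) aligned the reads, and Cufflinks and Cuffdiff quantified and compared them, per the submitters' processing notes. The authors deposited FPKM per gene and library, with 0.01 as the lowest value in place of 0. The authors' deposited table also holds group FPKM and, for each gene, a p-value and q-value, and its threshold was a false discovery rate of 0.05. The submitters name mm10, but only 4 of the 36 genes overlapped the position of their symbol in GRCm38, so no coordinate of the files is printed.

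No count test suits FPKM. The test was limma 3.58.1 in R 4.3.3 on log2(FPKM + 1), for genes with a mean of at least 1 FPKM, with an intensity trend and two-sided Benjamini-Hochberg adjustment over 12103 genes at 0.05. Changes on this scale understate those of low genes. Of the 24315 rows, 27 with names turned into dates stayed unnamed, and 1 with a failed value was left out. The procedure was tested on simulated data. Single genes also had an exact permutation test over the 6 libraries. Promoters and motifs were read from RefSeq with Python 3.11.15. The members and the lists were chosen with earlier results of these data known. All 36 members are named; of related lists, up to 4 genes with the smallest p (all ligands and co-receptors); of other cell types, up to 2 with the highest mean. Alternatives covered pseudocount, filter, scaling, variance model, sample weights, replicate number and libraries left out.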

Additional observations from a re-analysis of the deposited data

How the results depend on the processing

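Under the 20 settings tried, 27 of the 36 genes kept the sign of their change, and the medians of the role and vessel bed classes stayed positive. The number of the 36 genes with a positive change was 30 to 35, or 32 to 34 without 1 library, and their median was 0.221 to 0.311, or 0.182 to 0.34 without 1 library, with 0.182 reached without cKO 3. Genes called over the whole table (71) numbered 9 with no filter, 38 with no intensity trend, 13 with libraries 1 and 2 only, 13 without fl/fl 1 and fl/fl 2 (which leaves 1 fl/fl library, assumed to vary like the others), and 13 to 50 without 1 library; the cause was not tested. Of the 36 genes, 0 were called in all of these. With the replicate number as a block 213 genes were called, 2 of them among the 36 (Kdr, adjusted p = 0.0484, and Aplnr, adjusted p = 0.0401, by limma). Deviations of same-numbered libraries correlated at 0.089, 0.271 and 0.429 across genes and cKO 1 correlated better with fl/fl 2 (0.152), so the numbers were not taken as pairs. Over the 36 genes alone the same-numbered libraries correlated at 0.607, 0.45 and 0.812, each the highest for its library. For number 2 other values were close: cKO 2 with fl/fl 1 was at 0.432 and cKO 1 with fl/fl 2 at 0.431. Deviations within a group sum to 0, so these correlations depend on each other. They cannot decide whether the numbers are pairs, and the design gives no pairing. Log2 changes turned sign with upper quartile scaling for Sox17 (0.011) and Lyl1 (0.022); with array weights for Cldn5 (-0.278), Sox17 (0.133), Tal1 (-0.002) and Lyve1 (0.082); with libraries 1 and 2 only for Cldn5 (-0.134), Gpihbp1 (-0.072) and Fabp4 (-0.31); and without fl/fl 1 and fl/fl 2 for Cldn5 (-0.772), Sox17 (0.374), Fli1 (-0.069), Lyve1 (0.393) and Prox1 (-0.112). Without 1 library the change ran over -0.575 to 0.552 for Cldn5, -0.209 to 0.172 for Fabp4, -0.13 to 0.109 for Lyl1, -0.395 to 0.163 for Lyve1, -0.212 to 0.193 for Sox17 and -0.01 to 0.151 for Tal1. FPKM without read counts give no interval from sampling, and 3 hearts a group limit the precision.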
